A study of Mus musculus with 88 samples.

Results

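The Prader-Willi cluster genes are imprinted genes of central chromosome 7 in the mouse, and 6 of them were followed here: Snrpn, Ndn, Magel2, Mkrn3, Peg12 and Ube3a. They were chosen by gene name, 1 row each, from a table of 21942 loci that gives RNA levels in 26 libraries as RPKM (reads scaled to transcript length and library size, so levels of different genes can be set side by side). The series holds 88 samples, of which the 62 bisulfite sequencing samples were not analysed here. It asked how the culture medium and the sex chromosomes bear on embryonic stem cell (ESC) lines derived from F1 mouse embryos, with DNA methylation inherited from the gametes as its theme.

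Of the 26 libraries, 16 came from F1 129X1/SvJ and C57BL6 lines (129/B6) and 10 from F1 129X1/SvJ and MSM/Ms cells (129/MSM). The 129/B6 ESC lines were derived in 4 media, with 2 XX and 2 XY lines in each, all at passage 3. These media were 2i (inhibitors of MEK and GSK3), t2i (2i with less MEK inhibitor), a2i (where an inhibitor of Src replaces that of MEK) and serum. The 129/MSM cells comprised 2 XX and 2 XY lines in 2i and an XX and an XY line in serum (called S), all at passage 3. They also included XX line 15 moved from 2i to serum for 14 further passages (2i-S), 2 cultures of mouse embryonic fibroblasts (MEFs) at passage 1, and MEFs from 2i line 15 (2i-MEF). Line 15 therefore stands behind 3 libraries. The labels give the MEF libraries conflicting sexes, so no sex was used for them. Nothing in the labels says that lines of a group came from separate embryos, so p-values measure the spread between these libraries.

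Imprinted genes are read mainly from the copy of 1 parent. Snrpn, Ndn, Magel2, Mkrn3 and Peg12 are read from the paternal copy, because an imprinting control region at the first Snrpn exon acquires DNA methylation in the oocyte, and the promoters of the maternal copies are silenced in its wake. Ube3a is read from the maternal copy in neurons and from both copies in most other cells. In people, loss of the paternally expressed genes of the matching region causes Prader-Willi syndrome, and loss of maternal UBE3A causes Angelman syndrome. The table gives total RNA per gene, so maternal and paternal RNA could not be told apart.

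The genes lie on chromosome 7 of mm10 (GRCm38), in the order Ube3a (59228750-59311536), Snrpn (59982495-60140219), Ndn (62346569-62350262), Magel2 (62377010-62381640), Mkrn3 (62417593-62420139) and Peg12 (62461871-62464510). Snrpn encodes a core protein of spliceosomal particles, and its locus holds Snurf, a small reading frame on the same transcript. Ndn (necdin) and Magel2 encode MAGE family proteins, Mkrn3 a makorin ubiquitin ligase that restrains puberty, and Peg12 (Frat3) a GSK3-binding protein. Ube3a encodes a HECT ubiquitin ligase. The last 4 genes of the order start between 2.364 and 2.479 Mb from the start of the Snrpn locus.

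All 6 genes matched a RefSeq promoter (GRCm38.p6). The 250 bases before the start are printed for Ndn and Peg12, whose RNA levels differed most between XX and XY lines. For contrast they are also printed for Mkrn3, which lies between them, and for the start that Snrpn shares with Snurf. Each is written 5′ to 3′ on the strand of its gene, with CpG dinucleotides, the sites of DNA methylation, in capitals. The stretches are chr7:62348027-62348276 (plus strand) for Ndn, chr7:62420154-62420403 (minus) for Mkrn3, chr7:62464511-62464760 (minus) for Peg12 and chr7:60005200-60005449 (minus) for Snrpn.
Snrpn: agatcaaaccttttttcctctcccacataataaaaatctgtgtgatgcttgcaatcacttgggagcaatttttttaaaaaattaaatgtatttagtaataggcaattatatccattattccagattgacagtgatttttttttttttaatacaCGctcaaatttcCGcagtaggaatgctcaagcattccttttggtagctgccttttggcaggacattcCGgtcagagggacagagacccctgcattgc
Ndn: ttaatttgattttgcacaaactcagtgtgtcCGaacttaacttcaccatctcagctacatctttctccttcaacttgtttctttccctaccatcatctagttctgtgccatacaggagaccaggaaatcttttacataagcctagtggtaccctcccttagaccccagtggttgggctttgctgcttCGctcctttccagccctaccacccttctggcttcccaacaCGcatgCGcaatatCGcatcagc
Mkrn3: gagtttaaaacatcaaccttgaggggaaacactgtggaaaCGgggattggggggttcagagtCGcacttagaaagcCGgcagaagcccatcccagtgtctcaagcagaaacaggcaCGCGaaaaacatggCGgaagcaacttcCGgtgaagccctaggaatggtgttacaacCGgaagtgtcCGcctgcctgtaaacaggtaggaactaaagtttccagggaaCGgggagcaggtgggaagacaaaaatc
Peg12: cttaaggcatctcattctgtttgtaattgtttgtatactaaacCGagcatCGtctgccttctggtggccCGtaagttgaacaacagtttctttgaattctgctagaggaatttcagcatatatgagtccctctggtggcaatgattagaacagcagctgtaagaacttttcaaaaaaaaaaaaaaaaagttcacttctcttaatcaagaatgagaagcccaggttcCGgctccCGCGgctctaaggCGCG
The printed stretches hold 5 CpGs for Ndn, 10 for Mkrn3, 8 for Peg12 and 3 for Snrpn. With the 50 bases after the start included, Ndn held 11, Magel2 10, Mkrn3 15, Peg12 12 and Ube3a 29 CpGs, and the shared Snrpn window 7, where the median of 32851 RefSeq promoters was 7. Of these genes Ube3a thus has the most CpG-rich start, above 87.1% of promoters. The 3 other Snrpn starts held 2, 3 and 4.

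TGCCGC, the hexamer that ZFP57 binds when methylated, occurred on either strand in 11.6% of all promoters of the same length. Among the members it was found in the shared Snrpn window, within or reaching into the 50 bases after the start, and in no other. CGCATGCG, a palindrome chosen after the sequences were read, occurred in 1.87% of promoters. It was found in the Ndn window and in all 4 Snrpn windows. In the shared Snrpn window it lay within or reached into the 50 bases after the start. The other Snrpn windows closely resemble each other in sequence, so their matches are not separate. A match describes letters, not a bound site.

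Snrpn and Ube3a were read at 1 RPKM or more in all 26 libraries, Mkrn3 in 22, Ndn in 21, Peg12 in 17 and Magel2 in 0. Over the 129/B6 lines in 2i, the order of levels in both XX lines was Snrpn, Ube3a, Peg12, then Ndn above Mkrn3, and last Magel2. In the XY lines Peg12 and Ndn fell below Mkrn3, and the levels of Peg12 (0.566 and 0.415 RPKM) and Ndn (0.672 and 0.553 RPKM) overlapped. Magel2 stood at 0 to 0.0638 RPKM in these 4 libraries. It failed the filter for testing (2 or more libraries of a fit at 1 RPKM), so 5 of the 6 genes were tested.

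**Figure D1:**
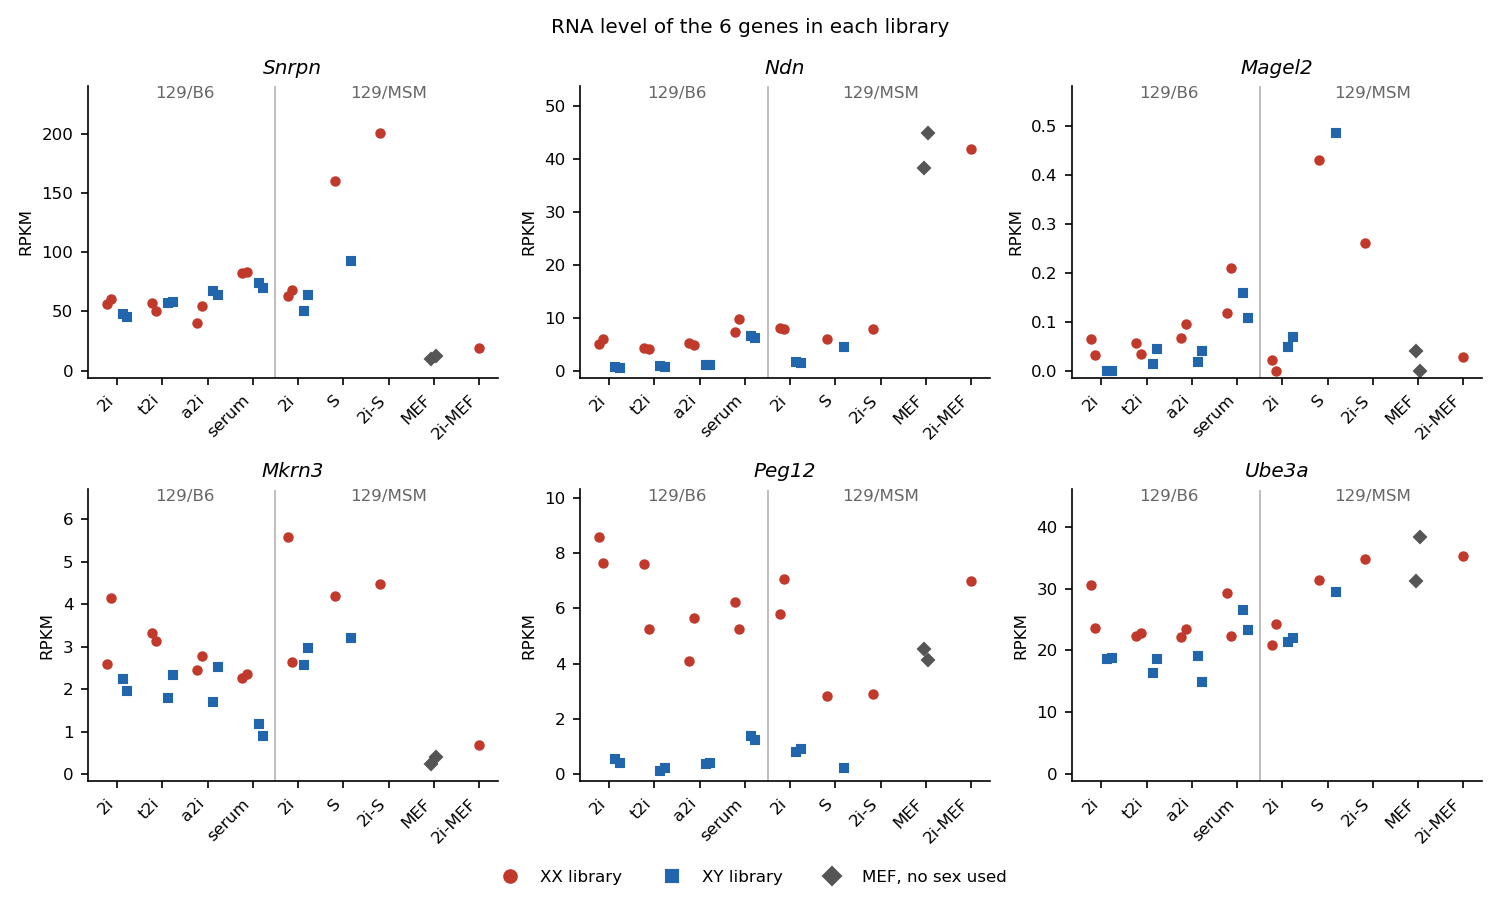
RPKM (linear vertical axis, own scale per gene) of each of the 6 genes in each of the 26 libraries, by cross and culture, with XX libraries as circles, XY libraries as squares and MEFs as diamonds. Ndn and Peg12 of XX lines stand apart from XY lines in 2i, t2i and a2i, and Ndn is highest in the fibroblasts.

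Across the series, libraries of a group correlated at 0.987 to 0.996 over genes, and no library pair was identical. RPKM summed to 624274 to 934309 per library. The table holds no counts and absolute depth is unknown. Relative depth, estimated from the spacing of low values, was 0.758 to 1.84 times that of 2i XX line c3, as an approximation. All 8 pluripotency markers were present in every ESC group (summed 7462 RPKM or more), and 7 of the 8 stayed under 1 RPKM in all MEF and 2i-MEF libraries.

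The serum libraries of the 129/B6 cross stand apart. Each of 16 fibroblast markers reached 1 RPKM in at least 1 of them, with summed levels of 1111 to 1588 RPKM, beside 224 to 396 in 2i, where 11 of 16 stayed under 1 RPKM in all libraries, and 8031 to 9555 in MEFs. The fibroblast share, the median over these markers of the level relative to MEFs, less its lowest value among the ESC libraries (0.0086%), was 11.2% and 14.7% in serum XY lines 10 and 16. It was 8.08% and 13.7% in serum XX lines 17 and 46, and 0.0195% at most in the serum-free 129/B6 libraries. The 6 primitive endoderm markers summed to 15.1 to 77.9 RPKM in serum and 1.71 to 2.49 in 2i, and 7 neural markers to 5.39 to 13.3 and 2.29 to 4.11. The part of the endoderm and neural markers in the results was not tested.

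Between XX and XY lines, Ndn and Peg12 were the members that differed most, and they did so in each serum-free medium. In 2i, Ndn read 5.06 and 5.96 RPKM in XX lines c3 and c4 and 0.672 and 0.553 in XY lines c2 and c6. Peg12 read 8.58 and 7.62 RPKM in the XX lines and 0.566 and 0.415 in the XY lines. Mean RPKM was 9.00 times as high in XX lines for Ndn and 16.5 times for Peg12. On the log2(RPKM + 1) scale, which understates the change of genes near 1 RPKM, Ndn was higher in XX lines by 2.01 (SE 0.16, adjusted p = 3.8e-06) and Peg12 by 2.61 (SE 0.19, adjusted p = 1.8e-06; limma, Benjamini-Hochberg adjustment over 13150 genes). Of the 5 tested members 3 were called in 2i (Ndn, Peg12 and Ube3a, all higher in XX lines), where 25.1% of all genes tested were called.

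In t2i, XX lines t1 and t3 read 4.24 and 4.17 RPKM of Ndn, and XY lines t2 and t6 read 0.912 and 0.746. Peg12 read 7.60 and 5.25 RPKM in the XX lines and 0.131 and 0.214 in the XY lines, its lowest levels in the series. Both genes were again higher in XX lines, by 1.51 (SE 0.16, adjusted p = 4.3e-05 by limma) for Ndn and 2.65 (SE 0.19, adjusted p = 2.1e-06) for Peg12. These were the 2 members called in t2i, beside 18.9% of all genes.

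In a2i, Ndn read 5.25 and 4.81 RPKM in XX lines a4 and a18 and 0.984 and 1.03 in XY lines a1 and a3. Peg12 read 4.08 and 5.64 RPKM in the XX lines and 0.360 and 0.413 in the XY lines. The differences were 1.58 (SE 0.16, adjusted p = 3.4e-05) for Ndn and 2.07 (SE 0.19, adjusted p = 1.6e-05) for Peg12. With Snrpn, which was lower in XX lines, 3 members were called in a2i, beside 28.3% of all genes.

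X-linked genes, present in an extra copy in XX cells, had a median XX minus XY difference of 0.86 in 2i (474 genes), and autosomal genes one of −0.04. Of 12660 autosomal genes tested, 60 had a larger XX minus XY difference than Ndn in 2i and 27 a larger one than Peg12. In t2i these numbers were 163 and 25, and in a2i 150 and 57. Both members are thus far out in the distribution of autosomal genes in these media, as a description of these lines.

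In serum the sexes differed less for Ndn. Ndn read 7.25 and 9.76 RPKM in XX lines 17 and 46 and 6.55 and 6.24 in XY lines 10 and 16. The groups lie close, and the difference was 0.35 (SE 0.16, adjusted p = 0.22 by limma), short of the threshold. Peg12 read 6.22 and 5.25 RPKM in the XX lines and 1.37 and 1.25 in the XY lines, a difference of 1.54 (SE 0.19, adjusted p = 4.2e-04). Mkrn3 read 2.27 and 2.37 RPKM in XX and 1.18 and 0.892 in XY lines, higher in XX lines by 0.71 (SE 0.20, adjusted p = 0.046). Peg12 and Mkrn3 were the 2 members called in serum, beside 7.29% of all genes. The Mkrn3 call ended when any of 12 libraries was left out: t2i XX lines t1 and t3, a2i XX lines a4 and a18, 2i XY lines c2 and c6, t2i XY lines t2 and t6 or any serum line (0.61 to 0.81). It also ended with no filter (adjusted p = 0.059), after quantile normalization (adjusted p = 0.053) and in a fit of the groups compared alone (adjusted p = 0.11).

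MEFs expressed Ndn at 38.3 and 44.8 RPKM, its highest levels together with 41.9 in 2i-MEF. The fibroblast share takes these 129/MSM MEFs as its reference, and its markers differ between fibroblast cultures. Their sum was 20792 RPKM in the 2i-MEF library, beside 8031 to 9555 in MEFs. How the share would change with 2i-MEF as the reference was not tested. At the estimated share, MEF RNA would give 4.64 and 6.11 RPKM of Ndn in serum XY lines 10 and 16, which leaves 1.91 and 0.131. In serum XX lines 17 and 46 it would give 3.36 and 5.68 RPKM, which leaves 3.89 and 4.09. After the subtraction Ndn differed between XX and XY lines in serum by 1.46 (SE 0.31, adjusted p = 0.012 by limma). This SE and p-value, like all those after subtraction, take the share as exact and leave out its error. Peg12, at 4.52 and 4.12 RPKM in MEFs, kept 5.87 and 4.66 RPKM in the XX lines and 0.892 and 0.611 in the XY lines, and differed by 1.84 (SE 0.20, adjusted p = 2.1e-04). In such bulk samples, fewer cells of a type and less RNA per cell cannot be told apart.

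**Figure D2:**
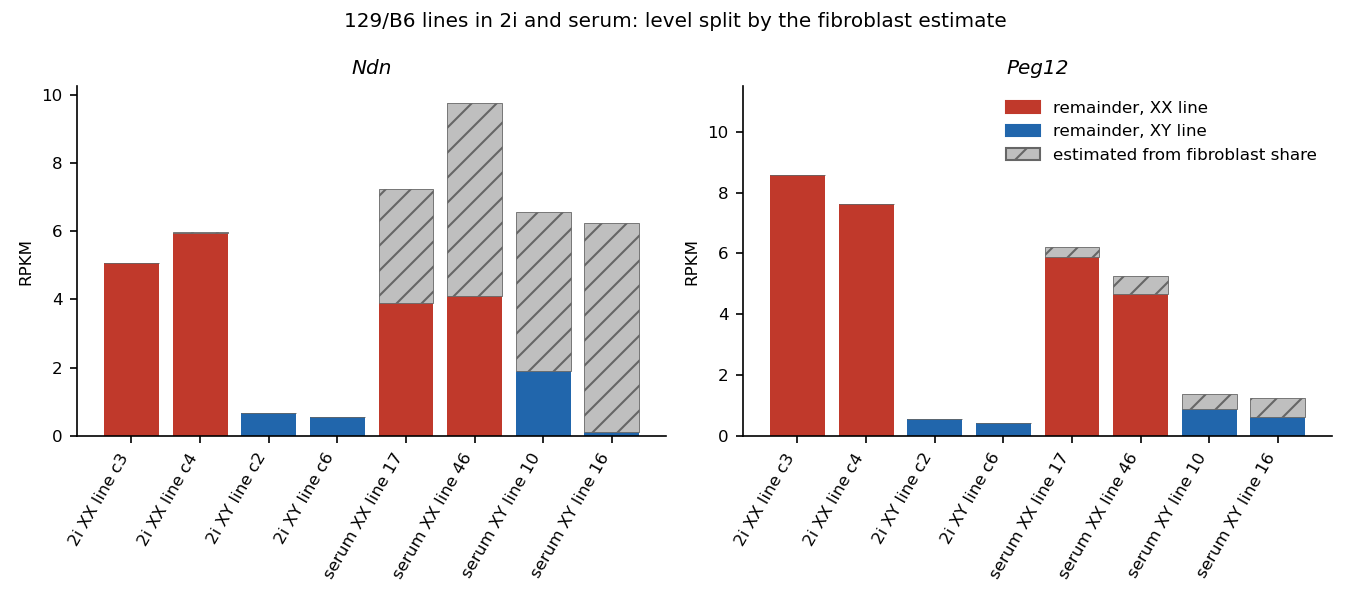
RPKM of Ndn and Peg12 in the 129/B6 lines in 2i and serum (1 bar per library, linear axis from 0), with the part estimated from the fibroblast share hatched and the remainder in the colour of the sex. The share makes up 4.64 of 6.55 RPKM of Ndn in serum XY line 10 and 6.11 of 6.24 in line 16, and little of Peg12 in the XX lines.

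The change of the sex difference with medium was tested as such. Ndn had a larger XX minus XY difference in 2i than in serum by 1.66 (SE 0.22, adjusted p = 0.0012), and Peg12 by 1.07 (SE 0.26, adjusted p = 0.026). These were 2 of 5 members called, beside 8.17% of all genes. Once the fibroblast share was subtracted, the differences were 0.55 (adjusted p = 0.49) for Ndn and 0.77 (adjusted p = 0.12) for Peg12, and neither was called. The Peg12 call also ended without any of 7 libraries: 2i XX line c3 or c4, 2i XY line c2 or c6, serum XY line 10 or 16, or serum XX line 46 (0.97 to 1.15). Between t2i and 2i the sex difference changed for 0 of 5 members, beside 1.26% of all genes, with 2 at an unadjusted p under 0.05 (Snrpn at −0.42 and Ndn at −0.50) and a lowest adjusted p of 0.3 by limma.

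Ube3a and Mkrn3 were modestly higher in XX lines on average, but were not called in each medium. In serum Ube3a differed by 0.039 (SE 0.16, adjusted p = 0.93 by limma). Its serum values overlapped, at 29.2 and 22.4 RPKM in XX and 26.5 and 23.3 in XY lines. Mkrn3 stood at 0.23 (SE 0.20, adjusted p = 0.41) in a2i. In 2i, Ube3a read 30.5 and 23.7 RPKM in XX and 18.6 and 18.8 in XY lines, higher by 0.50 (SE 0.16, adjusted p = 0.039). That call ended without 2i XX line c3 (0.33), 2i XY line c2 (0.50) or 2i XY line c6 (0.51), with no filter on low values (adjusted p = 0.054) and in a fit of the groups compared alone (adjusted p = 0.072). Averaged over the 4 media, 4 members were higher in XX lines, beside 41.5% of all genes called: Ndn by 1.36 (SE 0.08, adjusted p = 6.8e-08), Peg12 by 2.22 (SE 0.09, adjusted p = 5e-09), Mkrn3 by 0.47 (SE 0.10, adjusted p = 0.0019) and Ube3a by 0.33 (SE 0.08, adjusted p = 0.0064). Over the 3 serum-free media alone, Ndn stood at 1.70 (SE 0.09), Peg12 at 2.44 (SE 0.11), Mkrn3 at 0.39 (SE 0.11) and Ube3a at 0.42 (SE 0.09), and all 4 stayed called. Reads of Ube3a and of its antisense transcript cannot be told apart, because no source used here states whether counting took account of strand.

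**Figure D3:**
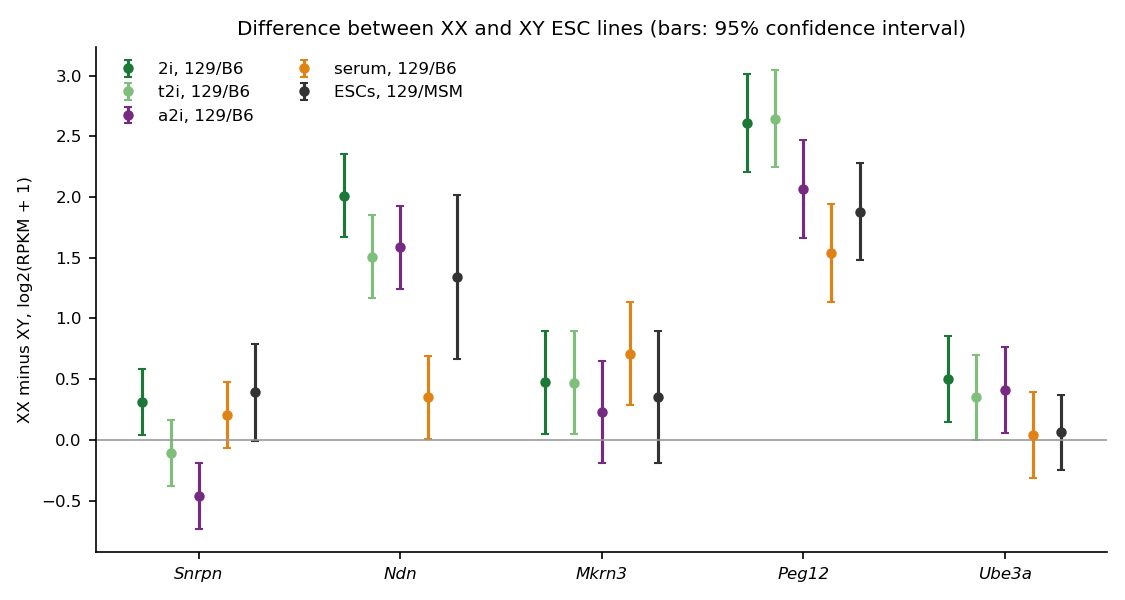
XX minus XY difference on the log2(RPKM + 1) scale (vertical axis) with 95% confidence intervals from limma for the 5 tested genes, in the 4 media of the 129/B6 cross and among the 129/MSM ESCs. Ndn and Peg12 lie well above 0 in 2i, t2i and a2i, and Ndn in serum stands at 0.35.

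Snrpn followed another pattern. In 2i it read 56.5 and 60.2 RPKM in XX and 47.9 and 45.6 in XY lines, and in t2i 57.0 and 49.985 in XX and 57.4 and 58.1 in XY lines. In a2i it read 40.6 and 54.6 RPKM in XX lines a4 and a18 and 67.1 and 63.7 in XY lines a1 and a3. The XX lines are thus the higher in 2i and the lower in a2i. The XX minus XY difference was 0.31 (SE 0.13, adjusted p = 0.09) in 2i and −0.47 (SE 0.13, adjusted p = 0.016) in a2i. The a2i call ended without a2i XX line a4 (−0.26), a2i XY line a1 (−0.43) or a2i XY line a3 (−0.50) and in a fit of the groups compared alone (adjusted p = 0.09), and the 2i difference of 0.31 was called without a2i XX line a4 or a18.

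Between a2i and 2i the sex difference of Snrpn fell by 0.78 (SE 0.18, adjusted p = 0.03), and Snrpn was the 1 member of 5 called, beside 4.93% of all genes. This call ended without any 1 of the 2i lines c3, c4, c2 and c6, without a2i XX line a4 and without a2i XY line a1 or a3 (−0.82 to −0.57), and after quantile normalization (−0.77, adjusted p = 0.051) and in a fit of the groups compared alone (adjusted p = 0.1). Snurf, counted as a gene of its own within the Snrpn locus, read 279 and 257 RPKM in a2i XX and 365 and 301 in a2i XY lines. Reads of a shared transcript could be split between the 2 names, so the level of each is uncertain.

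The 129/MSM lines gave the same order of the sexes for Ndn and Peg12 in 2i. Ndn read 8.13 and 7.95 RPKM in XX lines 15 and 2 and 1.62 and 1.39 in XY lines 20 and 23, a ratio of means of 5.33. Peg12 read 5.77 and 7.07 RPKM in the XX lines and 0.814 and 0.904 in the XY lines, a ratio of 7.48. In serum the single S lines read 5.91 (XX) and 4.54 RPKM (XY) of Ndn and 2.84 and 0.220 of Peg12. With 1 library per sex, the S lines have no replicate check.

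Over the 129/MSM lines in 2i and serum, Peg12 was higher in XX cells by 1.88 (SE 0.17, adjusted p = 0.0039 by limma), the 1 member called beside 3.44% of 13443 genes. The 2i-S library has a mean of its own in this fit and adds nothing to the sex difference. Ndn stood at 1.34 (SE 0.29, adjusted p = 0.051) and missed the threshold. Without S XX line 8 or S XY line 12 it stood at 1.85 and was called, and with the fibroblast share subtracted it stood at 1.45 (adjusted p = 0.036). Mkrn3 in 2i read 5.59 and 2.64 RPKM in XX and 2.57 and 2.98 in XY lines, so the sexes overlap. Ube3a read 20.9 and 24.2 RPKM in XX and 21.4 and 22.044 in XY lines, also overlapping.

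Between 2i and serum in the 129/B6 cross, Snrpn and Ndn were lower in 2i and Mkrn3 was higher. Snrpn read 82.8 and 83.4 RPKM in serum XX and 73.9 and 70.1 in serum XY lines, above every serum-free 129/B6 library (40.6 to 67.1). It was lower in 2i by 0.56 on the log2 scale (−0.56, SE 0.09, adjusted p = 2.2e-04). With the fibroblast share subtracted, but the remainder not rescaled for the ESC RNA displaced, it stood at −0.53 (SE 0.09). MEFs read 9.78 and 12.6 RPKM of Snrpn. Mkrn3 read 2.59 and 4.14 RPKM in 2i XX and 2.24 and 1.96 in 2i XY lines. It was higher in 2i by 0.49 (SE 0.14, adjusted p = 0.011), a call that ended without 2i XX line c4 (0.36, adjusted p = 0.054). MEFs read 0.246 and 0.39971 RPKM of Mkrn3, and after subtraction it stood at 0.51 (SE 0.14). The subtraction does not undo the dilution of ESC RNA by fibroblast RNA, so it says little for a gene this low in MEFs. Whether dilution bears on the Mkrn3 difference was not tested.

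Ndn was lower in 2i than in serum by 1.37 (−1.37, SE 0.11, adjusted p = 5.8e-07), but after the fibroblast share was subtracted it stood at 0.103 (SE 0.22, adjusted p = 0.72). Peg12 (−0.10, SE 0.13, adjusted p = 0.56) and Ube3a (−0.16, SE 0.12, adjusted p = 0.26) were not called. In all 3 of 5 members were called, beside 47.6% of all genes. Of 13150 genes 2215 were higher and 4042 lower in 2i, and with libraries quantile-normalized (median over genes 0.08, from −0.09) 3877 were higher and 2764 lower.

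By sex, the Peg12 difference had opposite signs. In XX lines it stood at 0.44 (SE 0.19, adjusted p = 0.084) in 2i against serum, and in XY lines at −0.63 (SE 0.19, adjusted p = 0.017). Ndn stood at −0.54 (SE 0.16, adjusted p = 0.018) in XX and −2.198 (SE 0.16, adjusted p = 3.5e-07) in XY lines, beside the fibroblast share of 8.08% to 14.7% in all 4 serum libraries. The tests of these differences between the sexes are the sex by medium values given above.

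**Figure D4:**
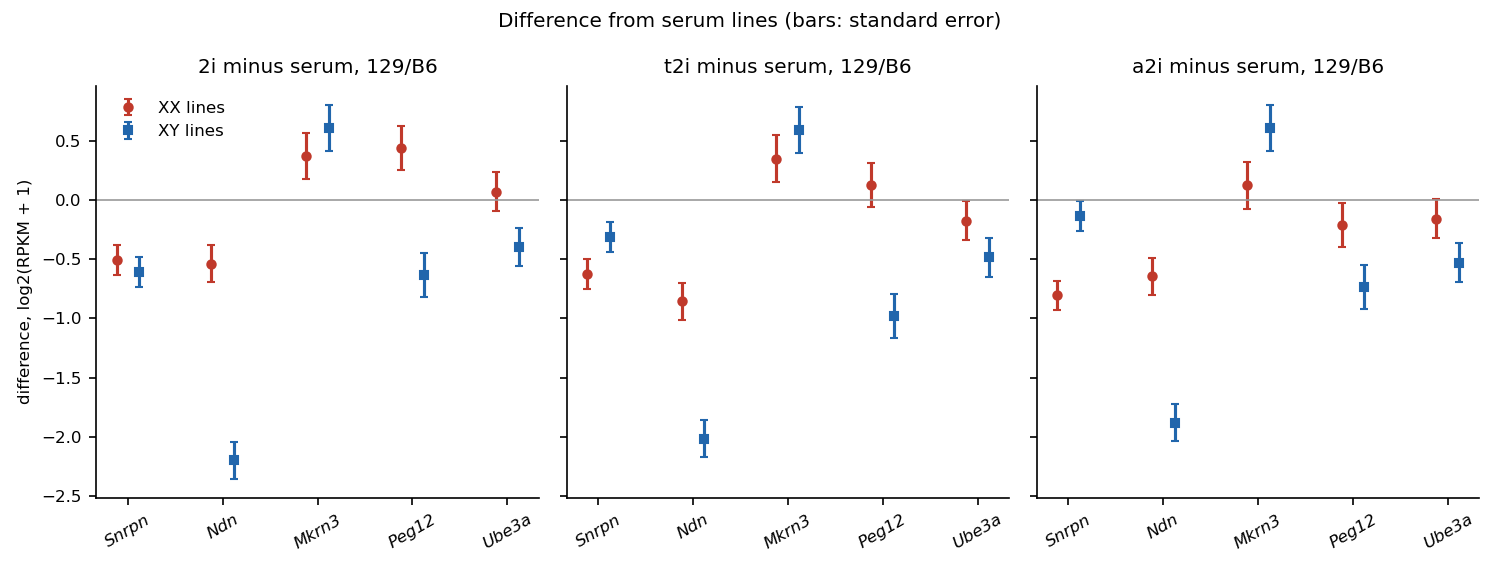
Difference of the 2i, t2i and a2i lines from the serum lines of the 129/B6 cross on the log2(RPKM + 1) scale, for XX lines (circles) and XY lines (squares), with bars of 1 standard error from limma. All 3 panels share the serum libraries, in which Ndn stands far higher than in serum-free XY lines.

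The comparisons of t2i and a2i with serum share the serum libraries with the one of 2i, so the 3 are not independent. In t2i all 5 tested members were called, beside 43.8% of all genes: Snrpn (−0.47, SE 0.09), Ndn (−1.44, SE 0.11), Peg12 (−0.43, SE 0.13) and Ube3a (−0.33, SE 0.12) lower, and Mkrn3 (0.47, SE 0.14) higher. With the fibroblast share subtracted Ndn stood at 0.035 (adjusted p = 0.91), Peg12 at −0.17 (adjusted p = 0.35) and Ube3a at −0.07 (adjusted p = 0.69). After quantile normalization Peg12 stood at 0.018 (adjusted p = 0.92 by limma) and Ube3a at −0.23 (adjusted p = 0.12). In XX lines alone Peg12 (0.126), Ube3a (−0.175) and Mkrn3 (0.349) were not called, and in XY lines alone Snrpn (−0.313) was not. Leaving out 1 library also ended calls. Peg12 lost its call without t2i XX line t3, t2i XY line t2, serum XY line 10 or serum XX line 17 (−0.41 to −0.31). Ube3a lost its call without those 4 or t2i XX line t1 (−0.34 to −0.24), and Mkrn3 without t2i XY line t6 (0.41) or serum XY line 16 (0.42).

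In a2i, 4 members were lower than in serum, beside 37.4% of all genes called: Snrpn (−0.47, SE 0.09), Ndn (−1.26, SE 0.11), Peg12 (−0.47, SE 0.13) and Ube3a (−0.34, SE 0.12). Mkrn3 (0.36, SE 0.14, adjusted p = 0.055) missed the threshold, and was called without 2i XX line c3 or c4 (0.36), without a2i XY line a1 (0.46), with the fibroblast share subtracted (0.39) and after quantile normalization (0.78). After subtraction of the fibroblast share Ndn stood at 0.21 (adjusted p = 0.49), Peg12 at −0.22 (adjusted p = 0.25) and Ube3a at −0.09 (adjusted p = 0.65). After quantile normalization Peg12 stood at −0.11 (adjusted p = 0.53 by limma) and Ube3a at −0.24 (adjusted p = 0.11), and neither was called. In XX lines alone Peg12 stood at −0.21 (adjusted p = 0.46) and Ube3a at −0.16 (adjusted p = 0.54). Ube3a was also not called in a fit of the groups compared alone (adjusted p = 0.06). Peg12 lost its call without a2i XX line a4 (−0.38). Ube3a lost its call without a2i XX line a4 or a18, a2i XY line a3, serum XY line 10 or serum XX line 17 (−0.36 to −0.25). Snrpn in a2i XY lines stood at −0.14 (SE 0.13, adjusted p = 0.44) against serum, and in a2i XX lines at −0.81 (SE 0.13, adjusted p = 5.7e-04).

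Averaged over the sexes, no member passed the main test among the 3 serum-free media. From 2i to t2i 0 of 5 were called by limma, beside 8.08% of all genes, and Peg12 alone had an unadjusted p under 0.05 (−0.33, SE 0.13, 95% confidence interval −0.61 to −0.04). From 2i to a2i 0 of 5 were called, beside 13.8% of all genes, with Peg12 again the 1 member at an unadjusted p under 0.05 (−0.38, SE 0.13, interval −0.66 to −0.09). Peg12 was called from 2i to a2i without a2i XX line a18 (−0.47, adjusted p = 0.048 by limma) and after quantile normalization (−0.43, adjusted p = 0.048). It was also called in XX lines alone (−0.65, adjusted p = 0.036), and from 2i to t2i with a pseudocount of 0.1 RPKM (−0.74, adjusted p = 0.037). From 2i to a2i Snrpn went opposite ways by sex, at 0.475 (adjusted p = 0.047) in XY and −0.303 (adjusted p = 0.13) in XX lines. Between a2i and t2i 0 of 5 were called, beside 1% of all genes, with 0 at an unadjusted p under 0.05 and the widest interval, that of Mkrn3, from −0.40 to 0.19. These intervals are not adjusted for the number of genes, while calls rest on adjusted p. A lack of calls therefore does not show that levels are equal.

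In the 129/MSM cross, Snrpn was likewise lower in 2i than in serum. It read 62.6, 68.0, 50.6 and 64.0 RPKM in the 2i lines 15, 2, 20 and 23, and 160 and 92.3 in S XX line 8 and S XY line 12. The difference was −0.98 (SE 0.18, adjusted p = 0.011 by limma), but −0.69 without S XX line 8, where the call ended. Peg12 went the other way, higher in 2i by 0.78 (SE 0.18, adjusted p = 0.026). That call ended without either S line (0.61 and 0.94), 2i XY line 20 (0.82) or 2i XY line 23 (0.79). Of 5 members 2 were called, beside 17% of all genes. Ndn stood at −0.38 (SE 0.31, adjusted p = 0.44 by limma) and was not called. With 1 library left out it ran from −1.15 (without S XX line 8) to 0.39, so its sign depended on the library.

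Ndn in the XY cells read 4.54 RPKM in S line 12 against 1.62 and 1.39 in 2i, a ratio of means of 3.01. The fibroblast markers of S line 12 stood at 1.84% of their MEF level, and that share would supply 0.765 RPKM of Ndn and leave 3.77. In the XX cells Ndn read 5.91 RPKM in S line 8 and 8.13 and 7.95 in 2i. Whether this medium effect differs between the sexes was not tested in this cross, which has 1 S line of each.

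Line 15 moved to serum (2i-S) read 200 RPKM of Snrpn, the highest in the series, against 62.6 in the same line in 2i. The 2i-S group is 1 library with no replicate of its own, assumed to vary like the other groups, and its line is also in the 2i group, so the lines are not independent. With that limit, the 2i-S minus 2i difference was 1.503 (SE 0.25, adjusted p = 0.046), the 1 member called beside 1.22% of all genes. It lost that call without either MEF library (1.503), 2i XX line 15 (1.39), 2i XX line 2 (1.48) or 2i XY line 20 (1.49), and with the fibroblast share subtracted (1.502, adjusted p = 0.051) or no filter (adjusted p = 0.077). In 2i-S, Ndn read 7.81 RPKM, Peg12 2.90, Mkrn3 4.49 and Ube3a 34.8, and Snurf 854, against 299.99 in line 15 in 2i. Between 2i-S and the S lines 0 of 5 members were called by limma, beside 0.00744% of all genes, with 0 at an unadjusted p under 0.05. Its medium cannot be told apart from its further passages.

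A fit of 14 libraries compared the 2i against serum effect of the 2 crosses. None of 5 members was called by limma, beside 11.6% of 13330 genes, with Snrpn (−0.43, SE 0.18) and Peg12 (0.87, SE 0.32) at an unadjusted p under 0.05. Their adjusted p-values were 0.15 and 0.094. Without 2i XY line 23 or S XY line 12 of the 129/MSM cross, Snrpn was called (−0.54 and −0.72).

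Magel2 was low everywhere, but its higher values lay in serum. It read 0.117 and 0.209 RPKM in serum XX and 0.159 and 0.107 in serum XY lines, and at most 0.0960 in any serum-free 129/B6 library. In the 129/MSM cross it read 0.430 and 0.484 RPKM in the S lines and 0.260 in 2i-S, and 0.0686 or less in the 2i lines. The serum and serum-free ESC libraries do not overlap in either cross, but how many of all genes do likewise was not counted. With no filter on low values, it was lower in 2i than in serum by 0.17 (−0.17, SE 0.03, adjusted p = 0.0013) in 129/B6 and by 0.49 (−0.49, SE 0.03, adjusted p = 0.0032) in 129/MSM. MEFs read 0.0401 and 0 RPKM of Magel2. Depth is unknown, and the precision of such low values with it.

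Fibroblasts held a different balance of these genes. From 2i ESCs to MEFs all 5 tested members were called, beside 71.1% of all genes. Snrpn was lower (9.78 and 12.6 RPKM, −2.36, SE 0.18, adjusted p = 1.2e-05), and so was Mkrn3 (−1.70, SE 0.25, adjusted p = 4.1e-04). Ndn rose by 3.16 (SE 0.31, adjusted p = 4.3e-05) and overlapped in MEFs with Ube3a, which read 31.3 and 38.4 RPKM. Ube3a rose by 0.62 (SE 0.14, adjusted p = 0.0044) and Peg12 by 0.52 (SE 0.18, adjusted p = 0.032).

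The Peg12 call in MEFs ended without either MEF library (0.47 and 0.57), 2i XX line 15 (0.49), 2i XY line 20 (0.48) or 2i XY line 23 (0.51), and the Ube3a call without MEF line 4 (0.48). Peg12 in MEFs (4.52 and 4.12 RPKM) lay between the XX and XY lines in 2i. The MEFs made from 2i line 15 read 19.3 RPKM of Snrpn, 41.9 of Ndn, 0.685 of Mkrn3, 6.9965 of Peg12 and 35.2 of Ube3a. This lone library was assumed to vary like the others, so a lack of calls says little, and 0 of 5 members were called by limma against MEFs, beside 0.454% of all genes. Snrpn alone had an unadjusted p under 0.05 (0.74, SE 0.26).

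Of 22 further genes in or around the cluster, 11 matched the table and 8 passed the filter of the 129/B6 fit. Between XX and XY lines in 2i 0 of these 8 were called, beside 25.1% of all genes, with a median difference of 0.26 beside −0.03 over all genes. Among the members, Ndn and Peg12 stood at 2.01 and 2.61, while Mkrn3 between them stood at 0.47 (SE 0.20, adjusted p = 0.097), and at 0.73 and called without 2i XX line c3. Snurf stood at 0.24 (SE 0.15). In 2i against serum, where 16.8% of all genes were higher and 30.7% lower, 1 of the 8 was higher (Nipa2, a magnesium transporter, 0.61, SE 0.11) and 3 were lower, among them Atp10a, a lipid flippase gene next to Ube3a (−1.41, SE 0.11), and Snurf (−0.54, SE 0.11).

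**Figure D5:**
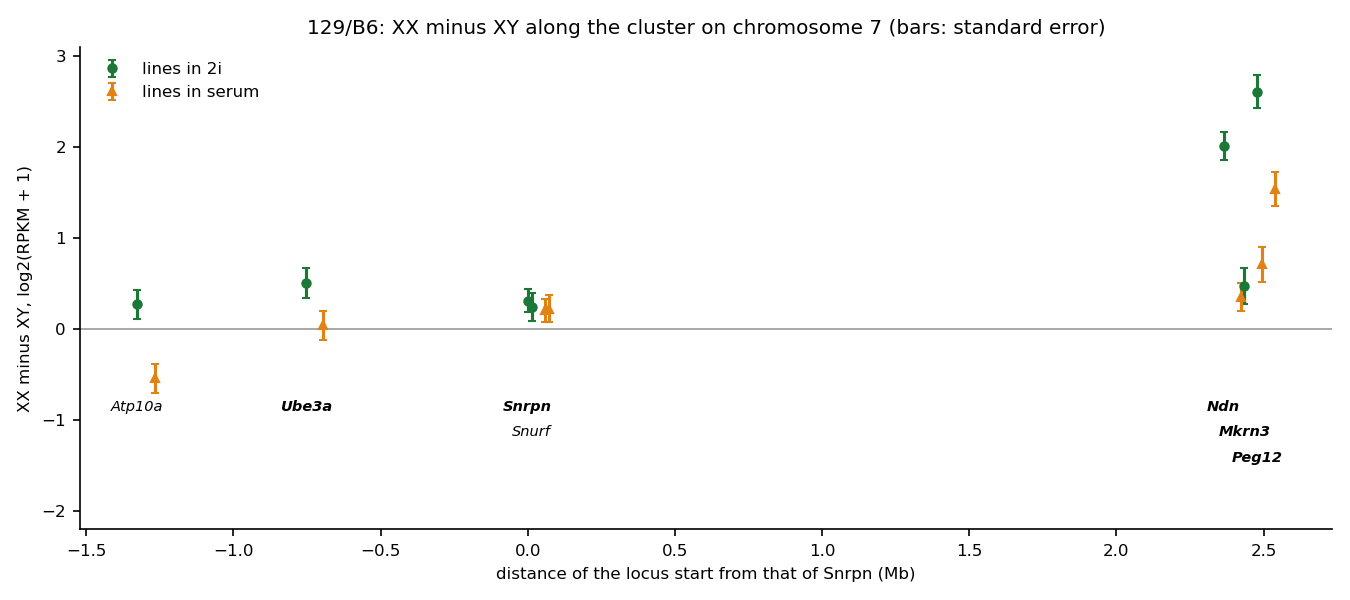
XX minus XY difference in 2i (circles) and serum (triangles, moved slightly to the right) of the tested genes from Atp10a to Peg12, against the distance in Mb of each locus start from that of Snrpn, with bars of 1 standard error. Members are in bold, and Ndn and Peg12 stand at 2.01 and 2.61 in 2i with Mkrn3 between them at 0.47.

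The table holds 31 paralogues of the members, of which 28 passed the filter. Between XX and XY lines in 2i, 8 were higher and 1 was lower, beside 11.9% and 13.2% of all genes, with a median of 0.12 beside −0.03 over all genes. The largest were MAGE genes, relatives of Ndn and Magel2 on the X chromosome: Magea4 (2.29, SE 0.24), Mageb16 (1.31, SE 0.15) and Magee1 (1.13, SE 0.17). X-linked genes had a median of 0.86 in 2i, so the shares over all genes do not allow for the X-linked paralogues. From 2i ESCs to MEFs 4 paralogues were higher and 18 lower, beside 29.9% and 41.2% of all genes, among them Mkrn1, the makorin related to Mkrn3 (−3.50, SE 0.13), and Mageb16 (−3.89, SE 0.18). Of 6 genes of UBE3A and MAGEL2 partners, 1 was higher in XX lines in 2i (beside 11.9% of all genes), Vps35 of the retromer (0.38, SE 0.12), and in MEFs 4 were lower (beside 41.2%), with the ligase gene Trim27 at −1.80 (SE 0.12).

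For each tested member the genes most alike were taken by Pearson correlation of log2(RPKM + 1) over the 16 libraries of the 129/B6 cross, among 12008 genes. The libraries share the sex and serum groups, so these values describe the pattern and carry no test. Magee1 (0.968) and Map6 (0.965) were among the 3 genes most like Ndn. Peg12 was most like Abhd6 (0.968), Dcaf12l1 (0.967) and Aard (0.965), and Aard read 13.1 to 30.5 RPKM in XX and 1.0 to 5.49 in XY lines. Mkrn3 was most like Taz (0.932), Fmr1nb (0.928) and Ndufb11 (0.927), all on the X chromosome. Ube3a was most like Zeb1 (0.914), Nab2 (0.898) and Asb1 (0.898), and Snrpn, with lower values, like Ier2 (0.876), Nt5c2 (0.872) and Trip6 (0.867).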

How the data were processed

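RNA levels of 26 libraries were deposited by the authors as RPKM per locus in 1 table, and 62 bisulfite samples were not analysed here. The submitters' processing notes name cutadapt 1.9.1, TopHat2 2.1.0, Bowtie2 2.2.5, Cufflinks 2.2.1 and mm10. Their settings and the annotation release were not stated in the sources used. Libraries were stranded mRNA libraries, per the labels' protocols. Groups came from the labels.

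Values were tested as log2(RPKM + 1), on genes with 1 RPKM in 2 or more libraries of the fit, with limma 3.58.1 in R 4.3.3 (trended variance). Benjamini-Hochberg adjustment ran over all genes of the fit, and adjusted p under 0.05 counted as called. The fits held 16 libraries (129/B6, 8 group means), 10 libraries (129/MSM, culture means and an XX term) and 14 libraries (both crosses). Standard errors and intervals (95%) came from limma, and the script was tested on simulated data. Figures and summaries used Python 3.11.15 with pandas 2.3.3, numpy 2.4.6 and matplotlib 3.10.9.

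The fibroblast share of a library is the median over 16 markers of their level relative to MEFs, less the lowest value among ESC libraries. Its subtraction was an alternative, extended after seeing the data to the 129/MSM comparisons and to the average over media, as was the average over the serum-free media alone. The remainder after subtraction was not scaled up for the ESC RNA that fibroblast RNA displaces. Fits after subtraction take the share as exact, so their standard errors and p-values leave out its error. Members, lists and tests were chosen with earlier results of these data known. The text names all 6 members, the genes of each list with the largest called differences, and the 3 genes most correlated with each member. Promoters are RefSeq's. Alternatives were another pseudocount (0.1 RPKM), no filter, quantile normalization, only the groups compared, each sex alone and leaving out each library. Some genes that the naming rule selects are not reported here.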

Additional observations from a re-analysis of the deposited data

Results flagged for a closer look

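For 3 members the sex difference among 129/B6 lines itself differed between media, by the interaction test of limma. For Ndn it was larger in 2i than in serum by 1.661 (SE 0.22, adjusted p = 0.0012), with 2.01 in 2i and 0.35 in serum, and all 4 libraries of each medium were in the fit. For Peg12 it was larger in 2i by 1.07 (SE 0.26, adjusted p = 0.026), with 2.61 in 2i and 1.54 in serum. The fibroblast markers stood at 8.08% to 14.7% of their MEF level in the serum libraries, and with that share subtracted the values were 0.55 (adjusted p = 0.49) for Ndn and 0.77 (adjusted p = 0.12) for Peg12.

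For Snrpn the sign of the XX minus XY difference changed between 2i (0.31) and a2i (−0.47), a change of −0.778 (SE 0.18, adjusted p = 0.03). The lowest a2i value was 40.6 RPKM, in XX line a4, and without that library the change was −0.57 (SE 0.15, adjusted p = 0.065).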

How the results depend on the processing

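Of 1980 values of single members under an alternative, 1796 kept their direction and their side of the threshold, 61 changed sign without being called under either setting, 93 lost a call, 25 gained one and 5 lost a call with a change of sign. The last were Peg12 in t2i against serum, at 0.018 after quantile normalization and 0.126 in XX lines alone, and Ndn with the fibroblast share subtracted, at 0.103 in 2i, 0.035 in t2i and 0.207 in a2i against serum. The subtraction takes MEF-like RNA from the serum libraries by construction, and the cause of the others was not tested.

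Counts of called members moved as follows, among 5 tested (6, with Magel2, where no filter was set). With a pseudocount of 0.1 RPKM, t2i against 2i went from 0 to 1 and the cross difference from 0 to 1. With no filter, XX against XY in serum went from 2 to 1, XX against XY in 2i from 3 to 2, 2i-S against 2i from 1 to 0 and the cross difference from 0 to 1, which is Magel2. After quantile normalization, a2i against 2i went to 1, t2i against serum from 5 to 3, XX against XY in serum to 1, sex by medium in a2i from 1 to 0 and the cross difference to 1. With the share subtracted, 2i against serum went from 3 to 2 (Ndn), t2i against serum to 2, a2i against serum from 4 to 2, sex by medium in 2i and serum from 2 to 0, 2i-S against 2i to 0 and XX against XY in 129/MSM from 1 to 2. With only the groups compared, XX against XY went from 3 to 2 in 2i and in a2i and to 1 in serum, and sex by medium in a2i went to 0. In XX lines alone, 2i against serum went to 2, a2i against 2i went to 1, t2i against serum to 2 and a2i against serum to 2, and in XY lines alone 2i against serum to 4, t2i against serum to 4 and a2i against 2i to 1. Counts of 2i, t2i and a2i against serum and of 2i against S each rose by 1 with no filter, that of a2i against serum rose to 5 with the other pseudocount and fell to 3 after quantile normalization and with only the groups compared, and that of XX against XY in serum rose to 3 with the share subtracted.

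Leaving out 1 library gave 2 to 3 for 2i against serum, 2 to 4 for XX against XY in 2i, 2 to 3 for XX against XY in a2i, 0 to 1 for a2i against 2i, 3 to 5 for t2i against serum, 2 to 5 for a2i against serum, 1 to 2 for XX against XY in serum, 1 to 2 for sex by medium in 2i and serum, and 0 to 1 for sex by medium in a2i. In 129/MSM it gave 1 to 2 for 2i against S, 0 to 1 for 2i-S against 2i, 3 to 5 for MEF against 2i, 1 to 2 for XX against XY, and 0 to 1 for the cross difference. The XX against XY calls of Ndn and Peg12 in 2i, t2i and a2i held without each library. No paired analysis was possible because no 2 RNA groups compared share more than 1 replicate number. The shared numbers are 15, in 2i and 2i-S, and 2, in 2i and MEFs. For number 2 the labels do not say that the cells are related. Depth is unknown, which limits what can be said of Magel2 and of other values near 0.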

Other observations

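Of 14 tested imprinted genes outside the cluster, 6 were higher and 0 lower in XX than in XY 129/B6 lines in 2i, beside 11.9% and 13.2% of all genes, with a median of 0.31 beside −0.03 over all genes. They include Plagl1, a zinc finger factor (1.71, SE 0.29), Peg10, a retrotransposon-derived placental gene (1.48, SE 0.30), and Impact, a translation regulator (0.85, SE 0.22). In the other 129/B6 media calls went both ways. In t2i 3 of the 14 were higher and 3 lower, beside 18.9% of all genes called (median 0.283, beside −0.014 over all genes). In a2i 2 were higher and 3 lower, beside 28.3% called (median 0.039, beside 0.041). In serum 2 were higher and 1 lower, beside 7.29% called. There Plagl1 was again higher in XX lines (1.51, SE 0.29), while Peg3, a zinc finger gene, was lower (−0.61, SE 0.15). Among 129/MSM ESCs 0 of 13 were higher and 1 was lower in XX cells, beside 3.44% called. Between 2i and serum 2 of the 14 were higher in 2i and 6 lower, beside 16.8% and 30.7% of all genes, with Plagl1 at 2.885 (SE 0.20) and Peg10 at −2.66 (SE 0.21), beside the fibroblast share of the serum libraries.

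Of 14 genes of DNA methylation and imprint maintenance, 2 were higher and 6 lower in 2i than in serum, beside 16.8% and 30.7% of all genes. The de novo methyltransferase genes Dnmt3a (−2.27, SE 0.19) and Dnmt3b (−1.34, SE 0.23) and their cofactor Dnmt3l (−1.56, SE 0.14) were among the lower ones. In 2i, 4 of the 14 were higher and 1 lower in XX than in XY lines, beside 11.9% and 13.2% of all genes, among them Dppa3, a maternal factor that guards methylation (1.57, SE 0.30), and Dnmt3l (1.18, SE 0.19). Their XX minus XY difference was larger in 2i than in serum, by 2.46 (SE 0.42, adjusted p = 0.0041) for Dppa3 and 1.12 (SE 0.27, adjusted p = 0.026) for Dnmt3l.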
